A study of Mus musculus with 4 samples.

Results

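The galectin family was followed through a table of RNA sequencing values from 2 basal cell types of the mouse nose, cultured olfactory horizontal basal cells (HBCs) and sorted respiratory basal cells (RBCs). Members were taken by exact gene symbol, which gave 8 of the 23281 genes listed: the galectins Lgals1, Lgals2, Lgals3, Lgals4, Lgals7, Lgals8 and Lgals9, and Lgals3bp, which encodes a galectin-binding glycoprotein. HBCs are the reserve stem cells at the base of the olfactory epithelium, and RBCs are the stem cells of the neighbouring respiratory epithelium. The 3 HBC libraries came from wildtype mice and from cells grown under control conditions to passage 3, with no sort recorded. The single RBC library came from microdissected tissue of the strain KRT5-CreER;Ai9-fl(stop)TdTomato, sorted as TdTomato+. In such a strain the Krt5 promoter drives an inducible Cre, and a reporter switched on in a basal cell is also inherited by its progeny. The labels give no age, sex, inducing treatment or number of animals for either group, nor whether separate animals or cultures gave the HBC libraries. Tissue, culture, sorting and strain all differ between the groups, so their effects cannot be told apart.

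Galectins are small lectins that bind beta-galactosides, above all the N-acetyllactosamine units of glycoproteins. They lack a signal peptide and are made in the cytosol, from which they leave the cell by an unconventional route. Outside the cell they cross-link glycoproteins and tune adhesion and receptor turnover, and inside it they recognise glycans exposed on ruptured vesicles. Prototype galectins (Lgals1, Lgals2, Lgals7) carry a single carbohydrate-recognition domain, the chimera galectin Lgals3 joins such a domain to a flexible self-associating tail, and tandem-repeat galectins (Lgals4, Lgals8, Lgals9) hold a pair of domains in one chain. In stratified epithelia, galectin-3 and galectin-7 are the best known members.

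Levels are depth-scaled FPKM, meaning deposited fragments per kilobase after division by 1 factor per library, which allows genes to be compared per length. Means of the HBC libraries carry their SD (n = 3), whereas each RBC value is that of 1 library. The p-values are limma's, two-sided and Benjamini-Hochberg adjusted over the 16438 genes tested, and a call needed both an adjusted p under 0.05 and a 2-fold change. The spread comes from the 3 HBC libraries alone, and the RBC library is assumed to vary as they do. These p-values thus reflect only how far the 3 HBC libraries differed, which may be technical variation. Cultures numbered or counted below are HBC libraries, which may share a culture. Deposited sums ran from 8377230 to 10856000 per library, and depth in reads is unknown. Of the basal cell markers, 8 of 11 were called towards RBCs (34.2% of all tested genes were) and 1 (Krt17) towards HBCs (12.8%). Krt5 stood at 18579 ± 368 in HBCs and 26422 in RBCs, and Trp63 at 545 ± 12.8 and 4296, so the defining basal genes were present in both groups. The RBC library also held markers of other cells. Of the tested markers, 12 of 16 for leukocytes, 8 of 9 for fibroblasts, 7 of 8 for endothelium, 8 of 8 for olfactory sensory neurons, 7 of 7 for ciliated cells and 8 of 9 for secretory and sustentacular cells were called higher there, beside 34.2% of all tested genes. Of these tested markers, 9 for leukocytes, 4 for fibroblasts, all 8 for endothelium, 4 for neurons, 5 for ciliated cells and 6 for secretory and sustentacular cells reached the test only through their RBC value. Their calls were largely fixed by that filter, so the counts describe the library and are no test. Fewer cells of a type and less RNA per cell cannot be told apart in such bulk libraries.

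Galectin transcripts were more abundant in the cultures and were spread over more members in the sorted cells. The 8 members reached a sum of 20186, 20092 and 20919 in HBC libraries 1, 2 and 3. Their sum in the RBC library was 7663, 2.66-fold less than the HBC mean. They made up 0.204% to 0.206% of all scaled values in HBCs and 0.0825% in RBCs. In the cultures Lgals3 and Lgals1 together carried 77.4% to 79.2% of the family sum, whereas in the RBC library they carried 48.7%. Lgals3 held 54.1% ± 1.35 (SD, n = 3) of the sum in HBCs and 46.9% in RBCs. The share of Lgals1 was 24.4% ± 1.72 (SD, n = 3) in HBCs and 1.80% in RBCs. Lgals9 took 2.64% ± 0.171 (SD, n = 3) of the sum in HBCs and 17.6% in RBCs, and Lgals7 took 11.6% in RBCs. The RBC shares lay outside the range of the HBC libraries for each of these 4 genes. For levels, the RBC value did so for 94.1% of all tested genes. That is no background rate for shares, which depend on one another within a sum.

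**Figure D1:**
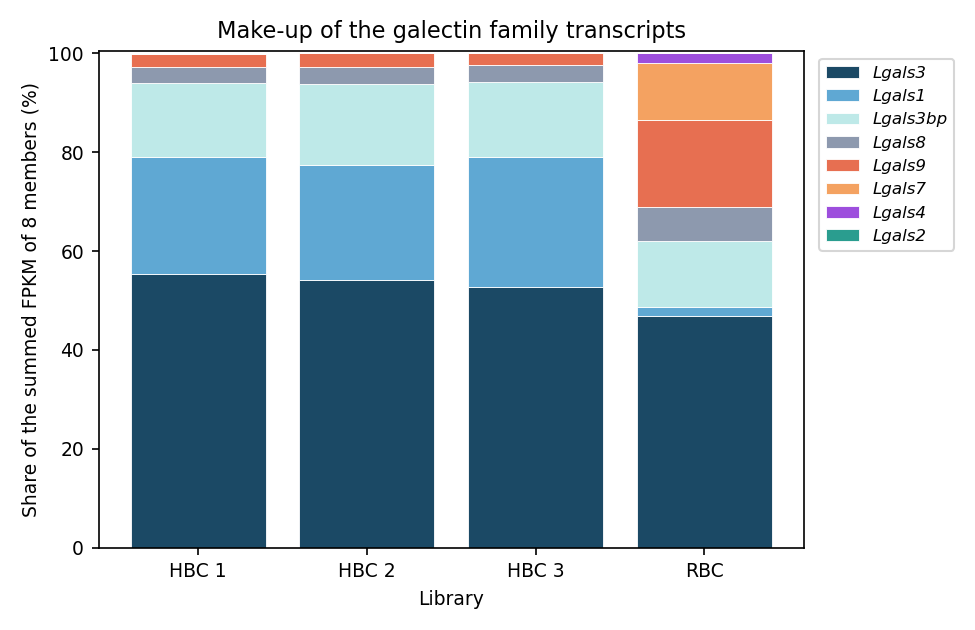
Share of each member in the summed depth-scaled FPKM of the 8 galectin family genes (vertical axis, %), 1 stacked bar per library. The HBC bars are mostly Lgals3 and Lgals1 (77.4% to 79.2% together), while the RBC bar has 1.80% Lgals1, 17.6% Lgals9 and 11.6% Lgals7.

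Of the 8 members, 3 (Lgals1, Lgals3 and Lgals3bp) were called higher in HBCs, 4 (Lgals2, Lgals4, Lgals7 and Lgals9) were called higher in RBCs and Lgals8 passed in neither direction. Among all 16438 tested genes, 12.8% were called towards HBCs, 34.2% towards RBCs and 47.0% in either direction. All 8 passed the filter on low values, 6 of them on the HBC mean alone. Lgals2 and Lgals7 passed through the RBC value, so that their inclusion in the test already required a high RBC value. The RBC value lay outside the range of the HBC libraries for each of the 8 members, as it did for 94.1% of tested genes. The median log2 change (RBC minus HBC) was 0.46 over the members and 0.45 over all tested genes.

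**Figure D2:**
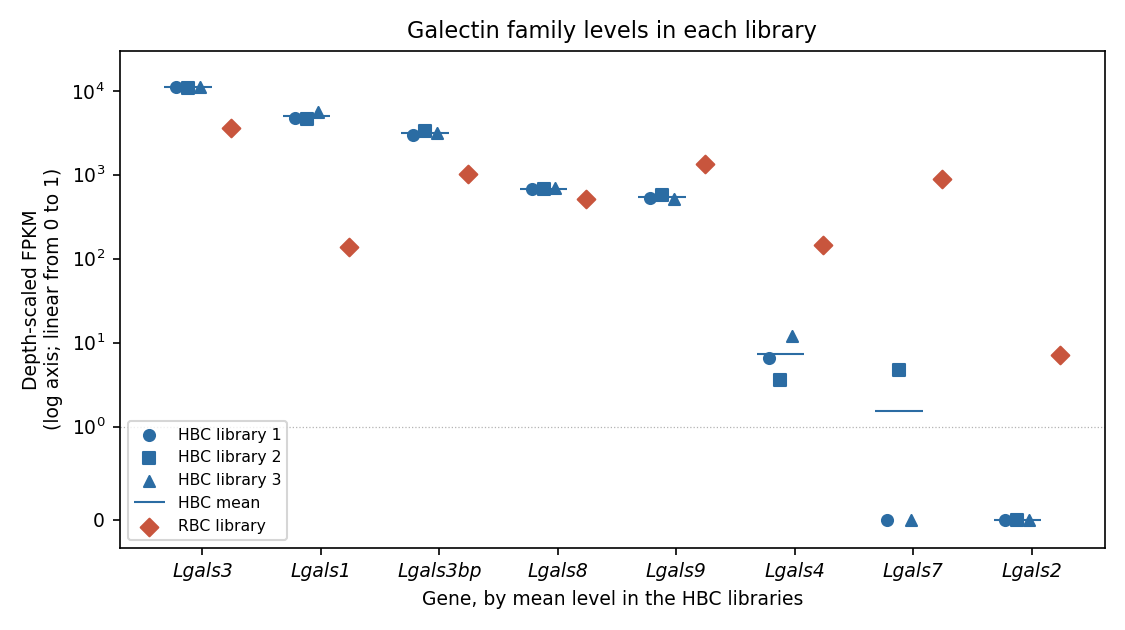
Depth-scaled FPKM (vertical axis, logarithmic above 1 and linear from 0 to 1) of each member in each library, with blue symbols for the 3 HBC libraries, blue lines for their mean and red diamonds for the RBC library. Lgals1 falls from 4653 or more in every HBC library to 138 in the RBC library, whereas Lgals7 is at 886 in the RBC library and at 0, 4.66 and 0 in the HBC libraries.

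The order of levels differed between the groups. In HBCs the order was Lgals3, Lgals1, Lgals3bp, Lgals8, Lgals9, Lgals4, Lgals7 and Lgals2. The first 5 of these and Lgals4 kept this order in 3 of 3 libraries with no overlap between neighbours, although Lgals1 exceeded Lgals3bp by only 1.59-fold and Lgals8 exceeded Lgals9 by only 1.27-fold. The ranges of Lgals4 and Lgals7 overlapped, as did those of Lgals7 and Lgals2. In the RBC library the order was Lgals3, Lgals9, Lgals3bp, Lgals7, Lgals8, Lgals4, Lgals1 and Lgals2, with no replicate to say which neighbours there differ. Lgals1 moved from rank 2 in HBCs to rank 7 in RBCs, and Lgals9 moved from rank 5 in HBCs to rank 2 in RBCs.

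Among the prototype galectins, Lgals1, which encodes a secreted dimeric lectin of mesenchymal and many dividing cells, showed the largest difference towards the cultures. It stood at 4792, 4653 and 5525 in HBC libraries 1, 2 and 3 and at 138 in the RBC library. All 3 HBC libraries were far above the RBC library. The HBC mean of 4990.1 ± 468 was 36.1-fold above the RBC value, with a log2 change of -5.16 (SE 0.13, limma adjusted p = 0.000667). Lgals3 exceeded Lgals1 by 1.99- to 2.34-fold in the cultures and by 26.0-fold in the sorted cells. The fibroblast markers, which mark a mesenchymal cell type, were called higher in RBCs in 8 of 9 cases, and Fbln1 was not called. Of all tested genes, 34.2% were called towards RBCs, and 4 of the 9 markers were tested only through their RBC value. The fibroblast markers summed to 152 to 167 in HBC libraries and to 7900 in the RBC library (Col1a1 at 1.27 ± 0.264 and 360.1, Dcn at 43.9 ± 11.8 and 6885). The HBC sum was mostly Fbln1, and none of those markers was at 0 in all HBC libraries. The part of fibroblasts or other mesenchymal cells in the Lgals1 level of either group was not tested.

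Lgals7, a gene of stratified squamous epithelia that p53 is known to induce, was listed at 0, 4.66 and 0 in HBC libraries 1, 2 and 3 and at 886 in the RBC library. Only HBC library 2 had any signal. Its deposited value times the length of the longest transcript in kilobases was 3.69, which is 3.0 times the median smallest product of 787 low genes with a single transcript (1.23), a measure of what 1 read is worth. The log2 change was 8.96 (SE 1.44). Lgals7 is counted as called higher in RBCs, but it was tested only because its RBC value was high, so no p-value is given. It was not called without HBC library 1 (log2 change 8.58) or 3 (8.52), nor with a pseudocount of 0.1 (11.26). No fold is given, since the HBC value is near that of single reads.

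Genes of suprabasal and squamous keratinocytes divided between the groups. Of 11 tested, 4 were called higher in RBCs (34.2% of all tested genes) and 4 higher in HBCs (12.8%). Towards RBCs, as for Lgals7, stood keratin 1 (Krt1, at 0.516, 0 and 0 in cultures 1, 2 and 3 and 179.8 in the sorted cells, tested only through its RBC value) and the keratinocyte differentiation gene Krtdap (9.03, 0 and 0 there and 719.8 in RBCs). Krtdap missed the threshold when HBC library 2 (limma adjusted p = 0.120) or 3 (0.118) was left out and with a pseudocount of 0.1 (0.0970), over a range of 0.00123 to 0.120 across the alternatives. Towards HBCs stood the cornified envelope precursor Ivl (2492 ± 152 and 8.05) and keratin 6a (Krt6a, 26046 ± 127 and 1049). The list summed to 47600 to 48100 in the cultures but 5330 in the sorted cells, where only Sprr1b was at 0. The part of suprabasal cells in the RBC level of Lgals7 was not tested.

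Lgals2, a prototype galectin best known from the gut, had a value of 0 in each of the 3 HBC libraries and of 7.16 in the RBC library. Its deposited RBC value corresponded to 3.7 times the product that measures a single read, so it was at the edge of detection in the only library that held it. It is counted as called higher in RBCs, but without spread in HBCs no p-value is given. It fell under the 2-fold minimum with a pseudocount of 10 (log2 change 0.78) and under quantile normalization (0.62).

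The chimera galectin Lgals3, known in epithelial cells for roles in adhesion, apical sorting and vesicle repair, was the most abundant member in every library. It stood at 11189, 10900 and 11017 in HBC libraries 1, 2 and 3 and at 3595 in the RBC library. The HBC libraries were close to one another (coefficient of variation 1.32%) and all lay above the RBC library. The HBC mean of 11035 ± 145 was 3.07-fold higher, with a log2 change of -1.62 (SE 0.03, limma adjusted p = 0.000373). Within its library, Lgals3 ranked above 99.5% of genes in HBCs and above 98.7% in RBCs. Galectin-3 was first described as a macrophage antigen. Leukocyte markers summed to 775 to 962 in HBC libraries, and to 16600 in the RBC library, of which Lyz2 made up 14733. The HBC sum was mostly Cd68 (514 ± 42.5, called 7.84-fold higher in HBCs) with S100a9 (198 ± 42.3) and S100a8 (116 ± 19.6), which were not called. Csf1r, Emr1, Tyrobp, Fcer1g and C1qb were at 0 in all HBC libraries. The part of leukocytes in the Lgals3 level of either group was not tested.

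Lgals3bp encodes a secreted glycoprotein with a scavenger receptor domain that binds galectin-3, and it is known as an interferon-induced gene. It stood at 2985, 3289.7 and 3148.5 in HBC libraries 1, 2 and 3 and at 1023 in the RBC library. All 3 HBC libraries exceeded the RBC library. The HBC mean of 3141 ± 153 was 3.07-fold higher (log2 change -1.62, SE 0.07, limma adjusted p = 0.0017). The level of Lgals3 was 3.75, 3.31 and 3.50 times that of its ligand Lgals3bp in HBC libraries 1, 2 and 3 and 3.51 times in RBCs. The lectin and its ligand thus differed between the groups by the same factor within the spread of the HBC libraries.

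Among the tandem-repeat galectins, Lgals8, a sensor of ruptured endosomes, was the member that differed least. It stood at 685, 675 and 697 in HBC libraries 1, 2 and 3 and at 519.8 in the RBC library. The HBC mean of 686 ± 11.0 was 1.32-fold higher, under the 2-fold minimum (log2 change -0.40, SE 0.03, limma adjusted p = 0.00315). The 95% interval of the log2 change was -0.48 to -0.31. With values as deposited the change was -0.29 (adjusted p = 0.305, over a range of 0.00154 to 0.305 across the alternatives).

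Lgals9, a ligand of the inhibitory receptor Tim-3 of T cells and an interferon-induced gene in many cell types, went the other way. It stood at 529, 566 and 519.6 in HBC libraries 1, 2 and 3 and at 1347 in the RBC library, above every culture. The RBC value was 2.50-fold the HBC mean of 538 ± 24.5 (log2 change 1.32, SE 0.07, limma adjusted p = 0.00206). The ratio of Lgals9 to Lgals8 was 0.746 to 0.839 in the cultures and 2.59 in the sorted cells, so that the more abundant tandem-repeat galectin was Lgals8 in the cultures and Lgals9 in the sorted cells. Leukocytes also express Lgals9. Of 16 tested leukocyte markers, 12 were called higher in the RBC library (34.2% of all tested genes were). Of the 16, 9 were tested only through their RBC value. Cd68 was called towards HBCs, and S100a8, S100a9 and Cd3e were not called. The leukocyte markers summed to 16600 in the RBC library, of which Lyz2 made up 14733, and to 775 to 962 in HBC libraries, mostly Cd68. The leukocyte gene Ptprc was at 10.5 in the RBC library. The part of leukocytes in the Lgals9 level of the RBC library was not tested.

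Lgals4, a galectin of digestive tract epithelium known for apical sorting of glycoproteins, was low in the cultures and moderate in the sorted cells. It stood at 6.55, 3.57 and 11.9 in HBC libraries 1, 2 and 3 and at 146 in the RBC library. The groups did not overlap, although the HBC libraries varied among themselves (coefficient of variation 57.6%). The RBC value was 19.8-fold the HBC mean of 7.35 ± 4.23 (log2 change 4.26, SE 0.75, limma adjusted p = 0.0229). Its deposited values in HBC libraries 1, 2 and 3 corresponded to 6.2, 4.2 and 14 times the product that measures a single read. They were thus near the edge of detection, and the fold is imprecise. The call was lost without HBC library 1 (adjusted p = 0.0969, over a range of 0.00669 to 0.0969 across the alternatives). Lgals6, a near-identical copy of Lgals4, was listed at 3.37e-05, 8.27 and 0.000593 in HBC libraries 1, 2 and 3 and at 0.000653 in the RBC library, so the split of reads between the pair is uncertain. Their sum was 6.55, 11.8 and 11.9 in HBC libraries 1, 2 and 3 and 145.8 in the RBC library, 14.4-fold the HBC mean of 10.1 ± 3.08. Of 9 tested secretory and sustentacular markers, 8 were called higher in RBCs, beside 34.2% of all tested genes. Of the 9, 6 were tested only through their RBC value. These markers summed to 19800 to 20900 in HBC libraries and to 484000 in the RBC library. The HBC sum was almost all Aqp5 (20389 ± 581), the marker called towards HBCs, and the RBC sum was mostly Bpifa1 (438310). Without Aqp5 the sums were 55.5 to 79.7 in HBCs and 478000 in RBCs. Muc5b and Cyp2g1 were at 0 in all HBC libraries, Scgb1a1 was at 0 in all 4 libraries, and the part of such cells in the Lgals4 level was not tested.

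**Figure D3:**
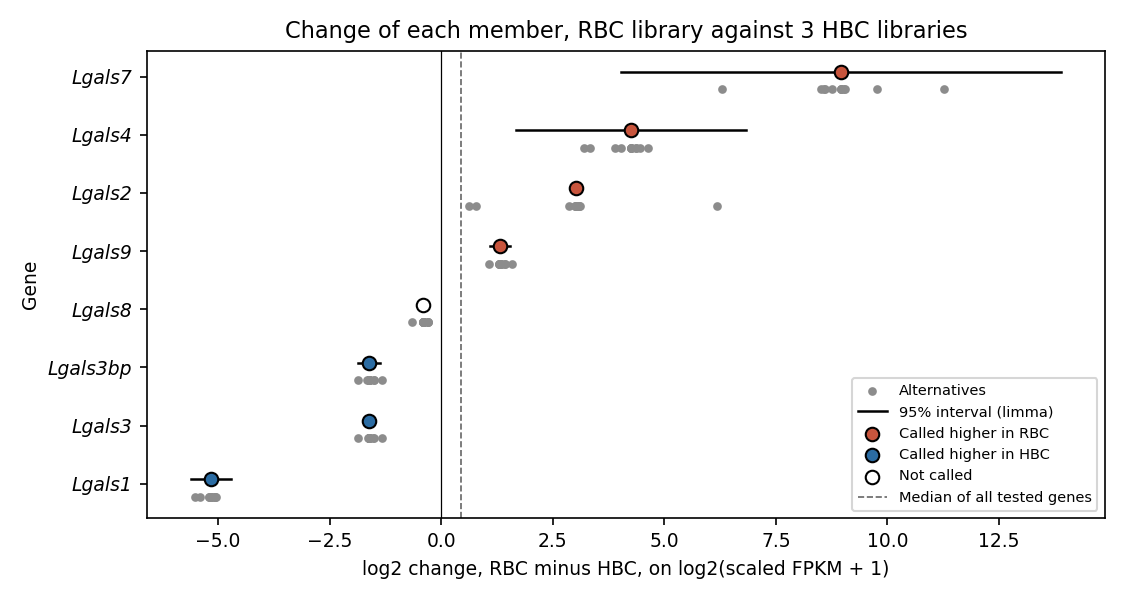
Log2 change of each member on the log2(scaled FPKM + 1) scale, RBC minus HBC (horizontal axis). Circles are the main estimate, black bars limma's 95% interval (none for Lgals2, which is at 0 in all HBC libraries), grey points the alternatives and the dashed line the median of all tested genes (0.45). The members run from Lgals1 at -5.16 to Lgals7 at 8.96, and no alternative crosses 0.

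Because Lgals3bp and Lgals9 are both known to respond to interferon yet differed in opposite directions, the other genes of that response were examined. Of 15 interferon-stimulated genes tested, 12 were called higher in the HBC libraries (12.8% of all tested genes were) and 0 in the RBC library (34.2% were). Their median log2 change was -3.38, beside 0.45 over all tested genes. The antiviral gene Ifit3 stood at 4003, 3606.5 and 3833 in HBC libraries 1, 2 and 3 and at 44.2 in RBCs, an 86.2-fold difference (limma adjusted p = 0.000132). Bst2, which encodes the virus-tethering protein tetherin, was 26.1-fold higher in HBCs (7955 ± 571 and 305), and the RNA-binding effector Ifit1 was 21.0-fold higher (2422 ± 33.3 and 115). Irf9, Stat2 and Mx2, named after their values were seen, were not called, with log2 changes of -0.79, -0.65 and -0.64. Lgals3bp thus lay on the side of these genes and Lgals9 on the opposite side. Whether interferon signalling sets the level of either gene was not tested.

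The promoters of this pair are shown to set their sequences beside that contrast. Promoter windows of 300 bases (250 before to 50 after the gene start) were taken from RefSeq on GRCm38.p6, which is not the build that the submitters' processing notes name. They matched 7 of the 8 members, all but Lgals1. The windows were searched on both strands for AANNGAAA, the core of sites bound by interferon regulatory factors, and for the core of the interferon-stimulated response element, a pair of GAAA tetramers with any 2 bases between them, which contains a match to the first motif. Capitals mark matches to AANNGAAA.

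Lgals9 (chr11:78984875-78985174, minus strand): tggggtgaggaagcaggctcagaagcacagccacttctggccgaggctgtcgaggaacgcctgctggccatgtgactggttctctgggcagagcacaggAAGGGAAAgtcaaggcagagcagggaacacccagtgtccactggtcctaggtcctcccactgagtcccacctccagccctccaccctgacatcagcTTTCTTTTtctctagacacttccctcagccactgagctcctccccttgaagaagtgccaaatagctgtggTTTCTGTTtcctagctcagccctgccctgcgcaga

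Lgals3bp (chr11:118401910-118402209, minus strand): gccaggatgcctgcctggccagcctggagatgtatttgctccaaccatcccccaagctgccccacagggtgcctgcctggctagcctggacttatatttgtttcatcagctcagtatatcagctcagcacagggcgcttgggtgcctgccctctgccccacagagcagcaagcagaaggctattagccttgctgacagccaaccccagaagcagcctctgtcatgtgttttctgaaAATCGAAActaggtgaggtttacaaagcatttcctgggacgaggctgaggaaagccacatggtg

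Counted from 1 at the 5′ end of the window, the Lgals9 matches started at bases 100, 196 and 266, and the Lgals3bp match started at base 237. In Lgals9 the latter 2 matches, both on the opposite strand, were also matches to the response element core. Lgals3bp had no match to that longer core, and Lgals2, Lgals3, Lgals4, Lgals7 and Lgals8 had no match to either motif in these windows. Of 32851 RefSeq windows of this length, 23.9% held AANNGAAA and 3.44% held the response element core. A match is a string of letters and not a measured binding site.

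The windows of the most abundant member and of the member with the largest difference towards RBCs are shown for their CpG content, with CG dinucleotides in capitals.

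Lgals3 (chr14:47373610-47373909, plus strand): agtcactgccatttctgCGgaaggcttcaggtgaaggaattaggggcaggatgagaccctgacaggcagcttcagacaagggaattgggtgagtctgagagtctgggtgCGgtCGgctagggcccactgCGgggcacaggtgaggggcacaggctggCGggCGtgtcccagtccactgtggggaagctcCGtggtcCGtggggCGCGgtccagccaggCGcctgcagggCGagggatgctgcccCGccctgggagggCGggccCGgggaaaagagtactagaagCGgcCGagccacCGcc

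Lgals7 (chr7:28864136-28864435, plus strand): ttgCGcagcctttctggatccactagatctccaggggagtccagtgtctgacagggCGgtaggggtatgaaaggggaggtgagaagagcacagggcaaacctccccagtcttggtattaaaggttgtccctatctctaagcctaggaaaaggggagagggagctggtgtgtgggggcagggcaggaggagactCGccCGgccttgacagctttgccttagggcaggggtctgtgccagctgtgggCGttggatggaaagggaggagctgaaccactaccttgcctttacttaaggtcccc

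The Lgals3 window held 18 CG dinucleotides and the Lgals7 window 5, beside a median of 7 over all 32851 windows. The other 5 matched members held 3 to 6, so that of the 7 windows only that of Lgals3 lay above the median. The fewest, 3, were in the window of Lgals3bp, which ranked 3 by level in both groups. Whether CpG content bears on these levels was not tested. The GC content was 67.0% for Lgals3 and 57.7% for Lgals7, with a median of 52.7% over all windows.

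Galectin-fold genes outside the 8 members were few. Lgalsl, which encodes a galectin-like protein without known sugar binding, was 2.26-fold higher in RBCs (278 ± 17.4 in HBCs and 629, limma adjusted p = 0.00459), but came out below 2-fold when library medians were set equal (log2 change 0.93). Lgals12, a galectin of fat cells, was 4.05-fold higher in RBCs (15.3 ± 1.87 and 61.8, limma adjusted p = 0.00708) but was not called under quantile normalization (adjusted p = 0.0958, over a range of 0.00305 to 0.0958 across the alternatives). Lgals6 was not called, and the lens gene Grifin was listed at 0 in all 4 libraries.

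Galectins read the glycans that Golgi enzymes build, and these enzymes are described by class. Among 7 tested sialyltransferases, which cap galactose, 4 were called towards RBCs (34.2% of all tested genes were) and 0 towards HBCs (12.8%), with a median log2 change of 1.14 beside 0.45 over all tested genes. St6gal1, whose alpha2,6 sialic acid is known to block binding of several galectins, was 7.55-fold higher in RBCs (66.0 ± 3.24 and 498, limma adjusted p = 0.000733). The ganglioside enzyme St3gal5 was 48.2-fold higher (11.3 ± 2.99 and 544), and St3gal3 was 3.43-fold higher (63.3 ± 6.35 and 217). Core 1 and core 2 O-glycan enzymes had 2 of 5 called higher in HBCs, beside 12.8% of all tested genes, and 0 in RBCs, beside 34.2%. Gcnt3, a core 2 branching enzyme of mucin-type glycans, stood at 156 ± 11.2 in HBCs and 2.03 in RBCs (limma adjusted p = 0.000472), and C1galt1, the core 1 synthase, was 2.13-fold higher in HBCs (894 ± 95.9 and 420.01). C1galt1 was not called when HBC library 3 was left out (adjusted p = 0.0667, over a range of 0.00627 to 0.0667 across the alternatives), and it was under the 2-fold minimum with values as deposited (log2 change -0.97) and with equal sums (-0.98).

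N-glycan branching enzymes, which set the number of antennae that galectins can bind, had 3 of 9 tested called higher in HBCs (12.8% of all tested genes) and 1 in RBCs (34.2%), with a median log2 change of 0.36 near the 0.45 of all tested genes. Mgat4a and Mgat2 were 3.83-fold (1035.5 ± 13.5 and 271) and 2.60-fold (918 ± 46.2 and 353) higher in HBCs. Mgat4b was 2.15-fold higher (1927 ± 104 and 894) and fell under the 2-fold minimum with values as deposited (log2 change -0.99) and under quantile normalization (-0.86). Mgat5b was at 8.56 ± 1.63 and 33.2, but was not called when HBC library 1 (limma adjusted p = 0.0537) or 2 (0.0628) was left out. Under quantile normalization its log2 change turned to -0.17 (adjusted p = 0.568, the highest of a range from 0.00578). Mgat5, named after its values were seen as the enzyme of the branch that galectin-3 prefers, was not called (81.8 ± 2.99 and 121.5).

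Enzymes that build and extend N-acetyllactosamine had 5 of 12 called higher in RBCs and 2 in HBCs, shares near the 34.2% and 12.8% of all tested genes, and their median log2 change of 0.54 was near 0.45. B4galt4 was 4.98-fold higher in RBCs (99.5 ± 4.66 and 496), and the low genes B3gnt4 (1.65 ± 0.223 and 34.2, tested only through its RBC value) and B3gnt8 (5.23 ± 2.13 and 65.8) were also called there. B3gnt8 was not called when HBC library 1 (limma adjusted p = 0.0712) or 2 (0.0673) was left out, over a range of 0.00460 to 0.0712 across the alternatives. B3gnt3, which extends core 1 O-glycans, was 16.3-fold higher in HBCs (1107 ± 41.3 and 68.0, limma adjusted p = 0.000186). B3gnt5 was at 5.56 ± 1.46 and 0.849, but was not called when HBC library 1 (adjusted p = 0.101) or 2 (0.0854) was left out, over a range of 0.00323 to 0.101, nor with a pseudocount of 10 (log2 change -0.52).

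Of 19 tested glycoproteins that galectins are known to bind, 4 were called towards HBCs (12.8% of all tested genes were), 3 towards RBCs (34.2%) and 12 in neither direction. Their median log2 change was -0.57, beside 0.45 over all tested genes. The laminin receptor subunit Itga3 was 6.30-fold higher in HBCs (6501.5 ± 257 and 1032, limma adjusted p = 0.000496), the hyaluronan receptor Cd44 was 3.70-fold higher (1972 ± 50.1 and 534) and the semaphorin and growth factor co-receptor Nrp1 was 2.93-fold higher (268, 282 and 279 in cultures 1, 2 and 3 and 94.4 in the sorted cells). The membrane mucin Muc1 was 4.11-fold higher in RBCs (239 ± 14.2 and 983, limma adjusted p = 0.00164). The leukocyte genes Ptprc (0, 0.374 and 0.369 in cultures 1, 2 and 3 and 10.5 in the sorted cells) and Lag3 (1.29, 0 and 0 in the cultures and 11.8) were the other 2 counted towards RBCs. Both were tested only through their RBC values, so no p-value is given for them. Under quantile normalization neither Ptprc (log2 change 0.70) nor Lag3 (0.85) was called, and Lag3 was also not called when HBC library 2 (3.07) or 3 (3.06) was left out and with a pseudocount of 0.1 (5.63).

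Of 19 tested genes that clear vesicles marked by galectins, 5 were called higher in RBCs and 3 in HBCs, beside 34.2% and 12.8% of all tested genes, and 11 were not called. Their median log2 change was -0.15. Trim16, which encodes a partner of galectin-3 in the clearance of damaged lysosomes, was 7.15-fold higher in HBCs (316 ± 13.8 and 44.2, limma adjusted p = 0.000574). Lgals3 itself was 3.07-fold higher there. The autophagy receptors Optn and Sqstm1 were 4.39-fold (264 ± 5.96 and 60.1) and 3.59-fold (12013 ± 298 and 3348) higher in HBCs. Map1lc3a was 5.07-fold higher in RBCs (749.5 ± 44.9 and 3798), and the kinase gene Ulk1 was 3.12-fold higher (120.01 ± 2.18 and 374). Calcoco2, the receptor that binds galectin-8 in human cells, was at 0 in each HBC library and at 10.6 in RBCs.

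**Figure D4:**
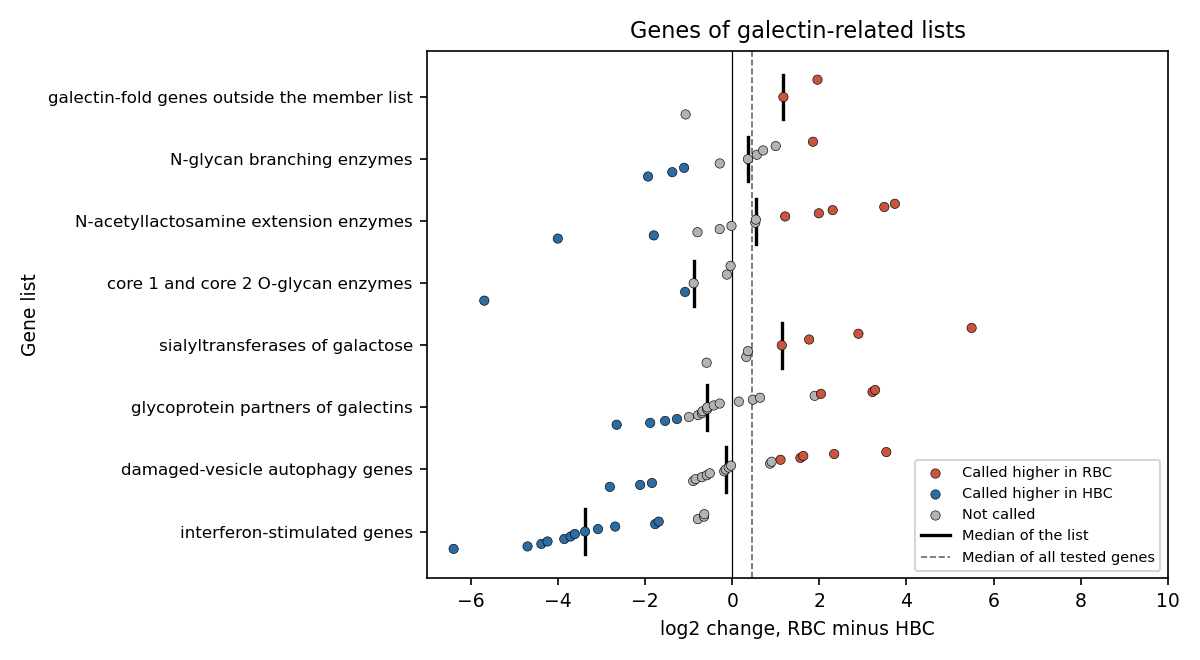
Log2 change of each tested gene (points, RBC minus HBC, horizontal axis) in 8 lists of galectin-related genes, with the list median as a black bar and the median of all tested genes (0.45) as a dashed line. All interferon-stimulated genes (median -3.38) and all core 1 and core 2 O-glycan enzymes (median -0.89) lie to the left of the dashed line. Sialyltransferases have a median of 1.14, and they and the other lists spread to both sides of that line.

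For each member, the 3 tested genes with the smallest root mean square difference in log2(value + 1) over the 4 libraries were taken as those most like it. This is a likeness of level and of a single contrast only. For Lgals3 they were Sqstm1 (difference 0.124 log2 units, 12013 ± 298 and 3348), the glycolytic enzyme Tpi1 (0.163) and Rps27l (0.167). For Lgals1 they were the endoplasmic reticulum oxidase Ero1l (0.145, 4842 ± 195 and 122), the secreted protease Htra1 (0.164) and Spp1 (0.402), which encodes osteopontin. Only 2 genes lay within 0.25 of Lgals1, whereas 409 lay within 0.25 of Lgals8, the nearest being Sav1, Arpp19 and Fam98b. For Lgals3bp the nearest were Mrpl12, Coa3 and Atf5, and for Lgals9 they were Ugdh, Flot2 and Acaa2. Lgals7 had no gene within 0.25. Those nearest it were Kcnj13 (0.315), a potassium channel gene with values of 0, 3.24 and 0 in cultures 1, 2 and 3 and 639.6 in the sorted cells, the lipoxygenase gene Alox12e (0.590) and the ionocyte proton pump gene Atp6v1b1 (0.668). For Lgals4 they were Acot1, Them5 and Galnt5 (0.293 to 0.362). For Lgals2 they were Bmp5, Adamts20 and Slc39a12, each also at 0 in all HBC libraries, and 372 genes lay within 0.25 of it.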

How the data were processed

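The authors deposited 1 table of FPKM values, 1 per gene symbol and library. STAR, Cufflinks 2.2.1, Cuffnorm and the build mm9 are named, without roles, in the submitters' processing notes. On the annotation, strand and filters nothing is given in the sources used here. Among genes with all values below 4, 12.4% to 26.0% had a ratio within 2% of 1 in each of the 6 library pairs, as if a read had the same worth in every library. The values were therefore taken to carry depth and divided by a median ratio to the geometric mean over 11134 genes at 10 or more in all libraries (factors 0.845, 1.05 and 1.07 for HBC libraries 1 to 3 and 1.06 for RBC). A gene was tested when its average over both groups, each group weighted alike, was 1 or more (16438 of 23281).

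Log2(FPKM + 1) of the deposited values after scaling was the input to limma 3.58.1 under R 4.3.3 (trend, 2 residual degrees of freedom). Changes on that scale are understated for low genes, and printed folds are ratios of scaled FPKM. All 1254 tested genes at 0 in every HBC library were admitted through the RBC value, and no p-value is printed for these or for other genes that the HBC mean alone would not have admitted. In simulated libraries (13833 genes) limma recovered 29.9%, 74.6% and 90.9% of the changes of 2-, 4- and 8-fold and called 0 of 13634 genes without a change. Where the lone library varied more (added SD 0.3 or 0.6, natural log), 2.58% and 23.3% of genes without a change were called. Each simulation changed few genes and drew only on genes with an HBC mean of 1 or more. Genes at 0 in all HBC libraries, such as Lgals2, were thus left out. In the data 47.0% of tested genes were called, so the simulated rates are not the error rates of these calls.

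The members, gene lists and scaling were chosen with earlier results of these data known. Named genes are all members, at most 3 called genes per direction of each related list and 2 of each marker list, by the size of the log2 change, and the 3 nearest genes of each member. No 50-base stretch of the longest GENCODE M21 transcript of a member was shared with any of the other galectin genes there, and Lgals6 is not among them.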

Additional observations from a re-analysis of the deposited data

How the results depend on the processing

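Over 12 alternatives, 95 values of the 8 members were computed, and 89 kept both the direction and the side of the threshold. No member changed direction. Lgals2 fell under the 2-fold minimum under quantile normalization (log2 change 0.62) and with a pseudocount of 10 (0.78), and it was not tested with a minimum of 5. Lgals7 lost its call with a pseudocount of 0.1 (log2 change 11.26). With 1 HBC library left out in turn, the log2 change of Lgals7 ran from 8.52 to 9.77 and that of Lgals4 from 3.89 to 4.64, and calls were lost as given above. Quantile normalization moved the number of genes called higher in RBCs from 5619 to 3158 and in HBCs from 2105 to 3664, and the share of calls higher in RBCs from 72.7% to 46.3%. Over all tested genes the median log2 change of 0.45 became 0.20 with the medians of genes above 0 in all libraries set equal, -0.10 under quantile normalization, 0.56 without scaling and 0.55 with sums set equal. Relative to that median, Lgals9 stayed at 0.86 or above and Lgals8 at -0.19 or below.

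Some counts of the gene lists moved by over 1.5 times. Under quantile normalization, galectin-fold genes higher in RBCs went from 2 to 1 (also with the medians set equal), N-acetyllactosamine enzymes from 5 to 3 (also without HBC library 2), partners from 3 to 1, fibroblast markers from 8 to 5 and endothelial markers from 7 to 3 (4 with a pseudocount of 10 or a minimum of 5). Leukocyte markers higher in HBCs went from 1 to 2 there, and Krt17 was not called there or without scaling. Branching enzymes higher in RBCs went from 1 to 2 under quantile normalization, without scaling, with sums set equal and with a pseudocount of 0.1, and to 0 without HBC library 1 or 2. N-acetyllactosamine enzymes higher in HBCs went from 2 to 1 with a pseudocount of 10, with a minimum of 5 and without HBC library 1 or 2. O-glycan enzymes higher in HBCs went from 2 to 1 without scaling, with sums set equal and without HBC library 3, and vesicle clearance genes higher in HBCs from 3 to 5 with the medians set equal. No paired analysis was possible because no label links an HBC library to the RBC library. The lone RBC library could not be left out, and the depth in reads that limits Lgals2, Lgals4 and Lgals7 is unknown.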

Other observations

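Lgals2 and Lgals1 lie close together on chromosome 15 and Lgals4 and Lgals7 on chromosome 7 in the RefSeq gene order of GRCm38.p6. The chromosome 15 pair differed in opposite directions, with Lgals1 higher in HBCs and Lgals2 listed at 0 there, whereas both members of the chromosome 7 pair were higher in RBCs. Between Lgals2 and Lgals1 lie the protein-coding genes Gga1, Sh3bp1 and Pdxp. Gga1, a sorting adaptor of the Golgi, was not called (436 ± 17.6 in HBCs, n = 3, and 578 in RBCs). Sh3bp1, a regulator of Rac, was called higher in RBCs (234 ± 20.2 and 479), and the pyridoxal phosphatase gene Pdxp was called higher in HBCs (103 ± 7.30 and 36.98). No protein-coding gene lies between Lgals4 and Lgals7 in that table.

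Other marker genes of the RBC library covered by the naming rule were at these levels. The basal genes Dlk2 (54.4 ± 11.0 in HBCs, n = 3, and 1776 in RBCs) and Icam1 (43.6, 52.1 and 54.3 in cultures 1, 2 and 3 and 1490 in the sorted cells) were called higher in RBCs. Cd74 was at 11.2 ± 2.69 and 998. Cldn5 and Emcn of endothelium were listed at 0 in all HBC libraries and at 23.6 and 12.1 in RBCs, as were Stoml3 (963), Rtp1 (203) and the ciliary gene Tekt1 (279.6). Bpifa1 was at 7.87 ± 2.59 and 438310, and Aqp5 at 20389 ± 581 and 5520.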
